A study of Homo sapiens with 9 samples.

Results

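Genes whose symbol begins with LINC followed by a number are human long intergenic noncoding RNA genes that carry a serial number in place of a functional name. The gene tables listed 2285 such genes among 63241, and the 156 described here were chosen because their counts, summed over all 9 libraries, reached at least 90. The other LINC genes fell short of that floor, 831 with at least 1 count and 1298 with a count of 0 in every library. The rule used the total alone, so a member could pass through the one group in which it was abundant: 37 members had fewer than 30 summed counts in at least 1 group, and the other 119 had 30 or more in all 3. Without their highest group 51 members would have missed the floor, and not every one of them is marked as such below. For such members the choice itself favours a difference between groups, so their fold changes are given as descriptions. The 5 members just inside the floor were LINC02449, LINC02005, LINC02503, LINC02564 and LINC02777, with 90.1, 91.0, 91.3, 95 and 97 summed counts. Just outside lay LINC00324 with 89.0, LINC02840 with 88.9, LINC01892 with 88.0, LINC01433 with 85.0 and LINC00926 with 84.1. Of these, LINC00324 held 73.0 of its counts in the PMA libraries, against 8.0 each in the control and As2S2 libraries.

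The RNA came from MEG-01, an established human megakaryoblastic cell line, and was sequenced after selection for poly(A) tails. There were 3 groups of 3 libraries: control cells, cells treated with As2S2 (arsenic disulfide) and cells treated with PMA (a phorbol ester that activates protein kinase C and is widely used to drive such lines towards megakaryocyte maturation). All 9 libraries came from the same line, and the labels give no difference in genotype, no dose and no treatment time. The series as a whole asks how As2S2 promotes megakaryocyte differentiation. The labels do not say that the replicates were separate cultures, so the p-values measure the spread between these libraries, which may be technical.

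Long intergenic noncoding RNAs are transcribed by RNA polymerase II from stretches between protein-coding genes, and are usually spliced, capped and polyadenylated like messenger RNAs but translated little or not at all. As a class they are known for low levels and for being restricted to few cell types, and a number of them act on the gene beside them while others act in the cytoplasm as binding partners of proteins or microRNAs. For most genes with a LINC number no function has been established. A few members are better known: LINC00520, also called LEENE, enhances expression of the endothelial nitric oxide synthase gene; LINC00261 lies beside the pioneer transcription factor gene FOXA2 and is studied in endoderm; LINC00467 and LINC00665 have been reported to encode micropeptides.

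The libraries held between 18.2 and 20.37 × 1e6 counts. Markers of the labelled cell type were present, with the summed level of 15 megakaryocyte genes at 387 to 424 TPM (transcripts per 1e6 transcripts, a scale that corrects for transcript length) in control libraries, 306 to 353 with As2S2 and 261 to 294 with PMA, although PF4 and VWF, defining platelet genes, were near 0. The list did not move as one with PMA: ITGA2B went from 190 to 68.3 TPM and NFE2 from 82.2 to 41.8, while ITGB3 went from 11.7 to 51.5, PPBP from 0.410 to 7.06 and GP1BB from 0.157 to 4.56. The 8 erythroid genes stood at 177 to 190, 130 to 142 and 182 to 191 TPM in the same order, the 9 monocyte genes at 23.6 to 29.7 TPM over all libraries, mostly LYZ, and lymphoid genes at 1.21 to 3.85 TPM with 2 of 6 at 0. Within the erythroid sum HBG1 went from 18.2 to 115 TPM with PMA, while CA1 went from 72.6 to 22.1 and KLF1 from 32.2 to 10.5. Markers of granulocytes and fibroblasts summed to at most 2.04 TPM in every library. The endothelial list stood at 95.4 to 111 TPM in control cells, 123 to 139 with As2S2 and 54.7 to 61.6 with PMA, mostly from ESAM, which platelets also carry. Of the defining endothelial genes, KDR was at 10.6, 11.4 and 5.53 TPM and TEK at 2.07, 1.46 and 1.30 TPM in control, As2S2 and PMA libraries, and CDH5 was near 0. The part of these markers in the results below was not tested. Control replicate 2 and As2S2 replicate 1 were unlike the rest of their groups: the chi-square per gene of a pair of same-group libraries was 12.5 to 15.9 where one of them took part and 2.46 to 3.55 otherwise. Without both libraries the members higher and lower numbered 35 and 27 for As2S2 against control, 43 and 29 for PMA against control, and 38 and 45 for As2S2 against PMA. In that order all genes numbered 3791 and 3698, 5121 and 4955, and 4943 and 4951, of 14902 tested. With all 9 libraries, As2S2 against control gave 37 and 29 members, and 2962 and 2859 of 14592 genes. In that comparison the loss of both libraries thus raised the calls over all genes but not among members.

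Most LINC RNAs were scarce. The median member stood at 1.04 TPM over the 9 libraries, with the middle of the distribution between 0.486 and 3.23 TPM, against a median of 4.16 TPM for all 14592 genes tested. There were 73 members under 1 TPM and 29 at 5 TPM or more. Since the members were chosen by their counts, these levels describe the choice as well as the class. The median number of counts per member over all 9 libraries was 311, and the median coefficient of variation between replicates was 17.5% in control, 16.8% in As2S2 and 14.6% in PMA libraries. It was 8.37%, 8.37% and 7.0% for members with 1000 counts or more.

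The most abundant member per length was LINC01088, at 117 ± 9.62 TPM in control, 74.2 ± 5.68 with As2S2 and 122 ± 3.06 with PMA (SD, n = 3 in each group). LINC00520 came next by mean over all libraries, but its rank differed by group: it stood at 9.73 ± 1.12 TPM in control, 77.3 ± 9.39 with As2S2 and 47.4 ± 4.62 with PMA (SD, n = 3). In As2S2 libraries LINC00520 and LINC01088 were therefore at similar levels, whereas in control libraries LINC01088 was far above it. LINC02762 followed at 35.4 TPM over all libraries, LINC00534 at 28.1, LINC01133 at 24.3, LINC00623 at 23.0, LINC00665 at 17.1, LINC00960 at 16.1, LINC01602 at 16.03 and LINC00662 at 14.7. This order over all libraries did not hold within groups. LINC01133 was above LINC00623 in control, at 37.7 against 26.2 TPM, and below it with PMA, at 13.4 against 22.1 TPM. LINC00665 stood at 26.6 ± 1.78 TPM in control and 14.3 ± 0.577 with As2S2, while LINC00960, next in the order, stood at 15.5 ± 0.524 and 21.5 ± 0.901 TPM (SD, n = 3). LINC01133 and LINC00662, both mostly studied in carcinomas, were at 37.7 ± 4.67 and 23.0 ± 1.62 TPM in control cells and at 13.4 ± 0.594 and 7.89 ± 0.668 TPM with PMA (SD, n = 3). The 10 most counted members made up 46.0 ± 0.438% of member counts in control libraries, 40 ± 0.585% in As2S2 and 38.1 ± 0.562% in PMA libraries (SD, n = 3), so the pool was less dominated by a few RNAs in both treated groups.

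Whether the pool as a whole shrank depended on the scale. Per 1e6 total counts the members summed to 885 ± 31.7 in control, 796 ± 2.53 with As2S2 and 761 ± 6.06 with PMA (SD, n = 3). On the scale used for the tests, CPM (counts per 1e6 counts) corrected with TMM factors, which set the typical gene to no change, the sums were 818 ± 16.5, 779 ± 4.06 and 843 ± 19.6 CPM, so PMA libraries were lowest on the first scale and highest on the second. In TPM the sums were 664 ± 33.8, 609 ± 8.02 and 604 ± 7.44 (SD, n = 3), again lowest with PMA. A level in TPM and a tested fold change can therefore differ in direction. Total-count scaling in place of TMM moved the median log2 fold change of all genes from 0.00 to -0.26 for PMA against control. It moved it from 0.00 to -0.08 for As2S2 against control and to 0.18 for As2S2 against PMA. All fold changes below are therefore relative to the typical gene, while counts given per library are as deposited. The TMM factors were 1.036 to 1.108 in control, 1.019 to 1.026 in As2S2 and 0.892 to 0.922 in PMA libraries, so a PMA library with the same count as a control library has the higher scaled level. In these bulk samples fewer cells that express a gene and less RNA per cell cannot be told apart.

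**Figure D1:**
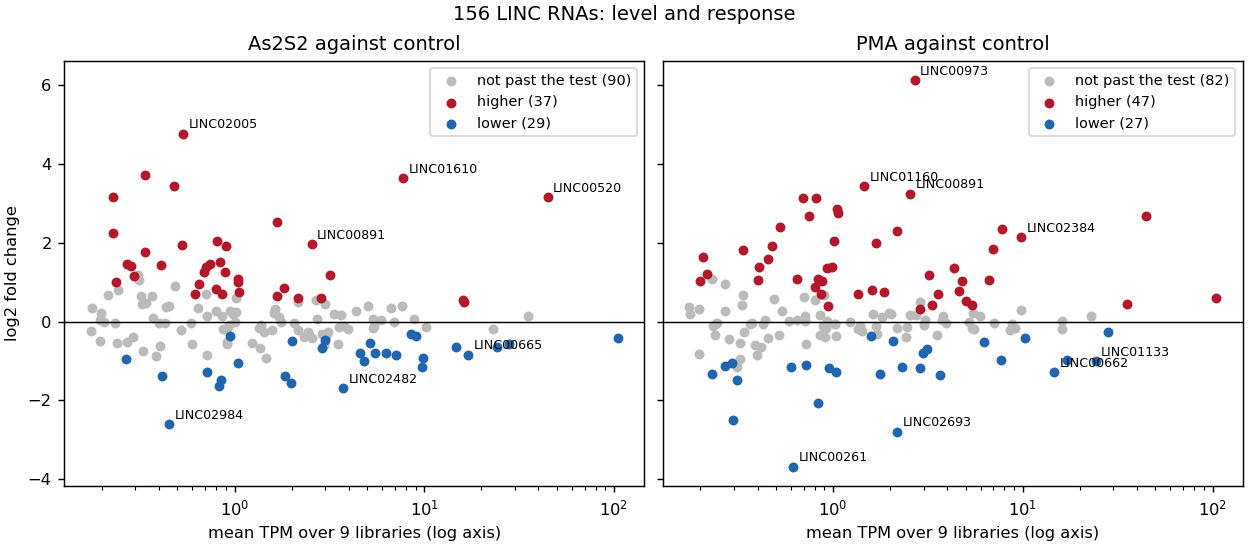
Log2 fold change (vertical axis) of each of the 156 LINC RNAs against its mean level in TPM over 9 libraries (horizontal axis, log scale), for As2S2 against control on the left and PMA against control on the right. Red points were higher and blue points lower at an adjusted p under 0.05, and grey points did not pass: 37, 29 and 90 on the left and 47, 27 and 82 on the right.

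With As2S2, 37 members rose and 29 fell at an adjusted p under 0.05 (edgeR's quasi-likelihood test, Benjamini-Hochberg adjustment over all tested genes), which is 42.3% of members beside 39.9% of all genes. Rises made up 23.7% of members and 20.3% of all genes, falls 18.6% and 19.6%. The balance depended on the scaling and on how members entered: with library totals alone 30 were higher and 34 lower, so that 46.9% rather than 56.1% of the called members were higher, and for all genes 39.3% rather than 50.9%. Of the 119 members with 30 counts or more in each group, 22 were higher and 24 lower, and of the other 37, 15 were higher and 5 lower. The members' median log2 fold change was 0.02, and that of all genes 0.00. Libraries of the 2 groups did not overlap for 81 members, where 45.8% of all genes did not. Of the members called, 26 rose by at least 1 on the log2 scale and 10 fell by as much, where 618 and 509 of all 14592 genes did. Among the 75 members with fewer than 300 counts 17 and 7 did, beside 246 and 165 of the 2233 genes at that depth. At 1000 counts or more the numbers were 2 and 0 of 37 members, beside 159 and 176 of 9457 genes. Among the 37 members with 1000 counts or more, 4 were higher and 13 lower, while among the 75 with fewer than 300 counts 20 were higher and 8 lower, a split by the same total that chose the members. For all genes the corresponding shares were 23.9% higher and 22.8% lower at 1000 counts or more, and 12.7% and 8.87% below 300. The authors' deposited table, from their own comparison, lists 23 members higher and 21 lower at an adjusted p under 0.05, beside 28.7% of all genes either way.

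Members that rose most with As2S2 were nearly absent from control cells. LINC02005 had 2, 0 and 1 counts in the control libraries, 36, 28 and 21 with As2S2 and 3, 0 and 0 with PMA. Of its 91 counts 85 were in the As2S2 libraries, the group through which it passed the floor. The ratio of summed counts, As2S2 over control, was 29.2 with a 95% counting interval of 9.65 to 144, and the fitted difference was 4.77 ± 0.68 on the log2 scale (SE). LINC02284 had 1, 0 and 5 counts in control, 28, 17 and 31 with As2S2 and 6, 6 and 6 with PMA. All As2S2 libraries were above all others, and the log2 fold change against control was 3.71 ± 0.58 (adjusted p = 0.000105). LINC02284 also passed the floor only through the As2S2 libraries. LINC00924 had 6, 1 and 2.06 control counts and 26, 21 and 29.99 As2S2 counts, again without overlap, with a log2 fold change of 3.17 ± 0.49. It too passed the floor only through the As2S2 libraries.

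LINC01610 rose on a higher count, though without its As2S2 libraries it too would have missed the floor. It had 2, 7 and 6 counts in control, 53, 65 and 59 with As2S2 and 16, 25 and 23 with PMA. The 3 groups did not overlap, As2S2 being highest and control lowest. The log2 fold change was 3.65 ± 0.35 for As2S2 (adjusted p = 8.94e-07), or 1.41 ± 0.741 TPM in control against 16.7 ± 1.41 TPM with As2S2 (SD, n = 3).

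LINC00520, the RNA that supports nitric oxide synthase expression in endothelium, combined a large rise with a high level. Its counts were 40, 46 and 53 in control, 354, 415 and 378 with As2S2, and 221, 266 and 246 with PMA. Both treated groups lay wholly above control, and As2S2 wholly above PMA. Against control the log2 fold change was 3.17 ± 0.14 with As2S2 (adjusted p = 1.08e-10), an 8.97-fold difference. Further members that rose were LINC02154, by 2.53 ± 0.25, LINC00964, by 2.04 ± 0.43, LINC00891, by 1.97 ± 0.13, LINC02972, by 1.94 ± 0.55, and LINC03060, by 1.92 ± 0.37. The call of LINC02972 did not pass without control replicate 3 or without As2S2 replicate 2. LINC02542 had 1, 1 and 5 counts in control and 28, 31 and 14 with As2S2, a log2 fold change of 3.44 ± 0.67. LINC02542 and LINC03060 would have missed the floor without their As2S2 libraries. Among the abundant members, LINC01602 rose by 0.55 ± 0.09 and LINC00960 by 0.51 ± 0.10. LINC01234, a carcinoma-associated RNA, rose by 0.86 ± 0.19.

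The largest fall with As2S2 was that of LINC02984, with 28, 20.8 and 33 counts in control, 6, 2 and 4 with As2S2, and 51, 84.5 and 67.9 with PMA. The groups stood in the order PMA, control, As2S2 without overlap. The log2 fold change for As2S2 was -2.60 ± 0.40 (adjusted p = 9.13e-05). LINC02482 had 48.5, 23.2 and 43.3 counts in control and 18, 4 and 10.2 with As2S2, with wide spread in both groups but no overlap, and a log2 fold change of -1.69 ± 0.40 (adjusted p = 0.00284). LINC02610 (-1.64 ± 0.50), LINC03011 (-1.56 ± 0.37), LINC01003 (-1.48 ± 0.26), LINC00471 (-1.39 ± 0.47), LINC02232 (-1.38 ± 0.26), LINC01446 (-1.28 ± 0.40) and LINC01357 (-1.14 ± 0.18) also fell. The calls of LINC00471, LINC01446 and LINC02610 did not survive the loss of some single libraries: the adjusted p rose above 0.05 for all 3 without As2S2 replicate 3, for LINC00471 and LINC01446 without As2S2 replicate 2, for LINC02610 without As2S2 replicate 1, and for LINC00471 without control replicate 3. Of these, LINC02610 and LINC00471 had as few as 5 and 3 counts in one As2S2 library.

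Several of the best measured members fell by a moderate amount. LINC00665 had 857, 950 and 930 counts in control and 423, 493 and 498 with As2S2, a log2 fold change of -0.83 ± 0.10 (adjusted p = 1.27e-05) with no overlap. LINC00662 fell by 0.65 ± 0.10, LINC01133 by 0.64 ± 0.11, LINC00534 by 0.58 ± 0.09, LINC01138 by 0.79 ± 0.14 and LINC01088 by 0.42 ± 0.09. LINC00339, which lies beside the small GTPase gene CDC42, fell by 0.84 ± 0.14. The fall of LINC00963 (-0.31 ± 0.11, adjusted p = 0.0287) was -0.19 without As2S2 replicate 1 and did not pass then, nor without control replicate 2 or control replicate 3.

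**Figure D2:**
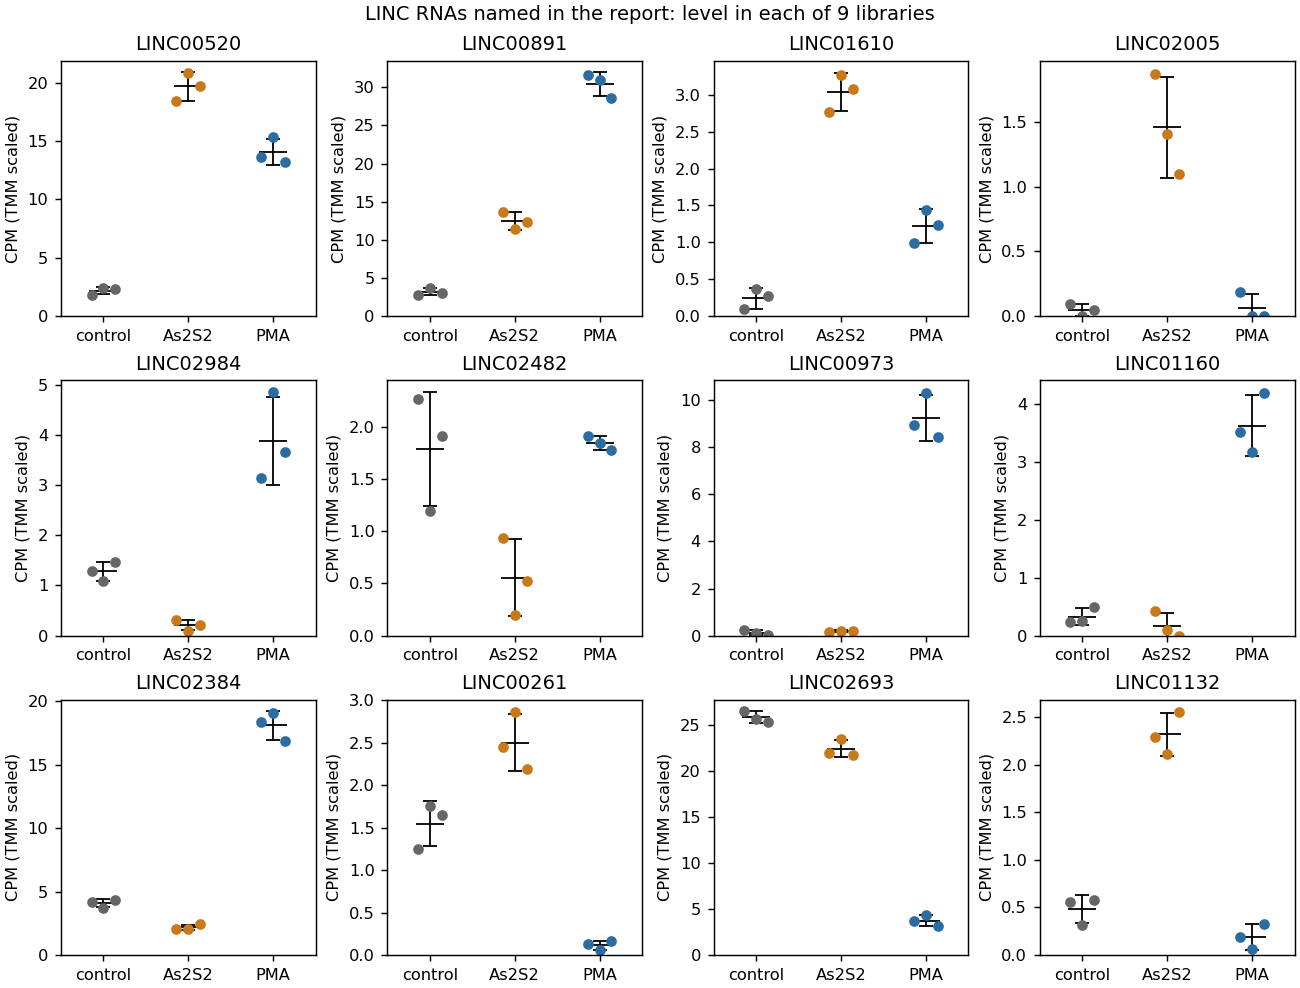
Level of 12 LINC RNAs in each of the 9 libraries, in TMM-scaled CPM (vertical axis, one scale per gene), with the points of each group beside its mean and SD (n = 3). LINC00520, LINC00891 and LINC01610 are above control in both treated groups, LINC02005 in the As2S2 group, and LINC00973 and LINC01160 in the PMA group, while LINC00261 and LINC02693 are lowest with PMA.

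With PMA, 47 members rose and 27 fell, which is 47.4% of members beside 61.9% of all genes. The rises alone made up 30.1% of members and 30.8% of all genes, the falls 17.3% of members and 31.1% of all genes. This balance depended on the scaling: with library totals alone 30 members were higher and 40 lower, so that 42.9% rather than 63.5% of the called members were higher, and for all genes 31.3% rather than 49.7%. Libraries did not overlap for 84 members, where 67.5% of all genes did not. Of the members called, 33 rose by at least 1 on the log2 scale and 17 fell by as much, where 1721 and 1339 of all genes did. Among the 75 members with fewer than 300 counts 20 and 9 did, beside 514 and 247 of the 2233 genes at that depth. At 1000 counts or more the numbers were 4 and 4 of 37 members, beside 693 and 745 of 9457 genes. Among the 37 members with 1000 counts or more, 10 were higher and 11 lower (27.0% and 29.7%), beside 32.5% and 37.1% of all genes at that depth. From 300 to under 1000 counts the shares were 34.1% and 13.6%, beside 27.8% and 28.0% of all genes. Below 300 counts they were 29.3% and 13.3%, beside 26.8% and 13.9%. Of the 119 members with 30 counts or more in each group, 32 were higher and 21 lower. Of the other 37, 15 were higher and 6 lower. The authors' deposited table lists 32 members higher and 21 lower, beside 44.9% of all genes either way.

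LINC00973 showed the largest change of any member in any comparison. It had 5, 2 and 1 counts in control, 3, 4 and 4 with As2S2, and 145, 179 and 157 with PMA. The PMA libraries stood far above the rest, and control and As2S2 libraries overlapped. LINC00973 passed the floor only through the PMA libraries. Against control the log2 fold change with PMA was 6.12 ± 0.31 (adjusted p = 5.52e-11), from 0.147 ± 0.119 to 7.72 ± 0.723 TPM (SD, n = 3). LINC00891 had 61, 72 and 69 counts in control, 263, 227 and 237 with As2S2, and 513, 536 and 532 with PMA, a stepwise order with no overlap. Its log2 fold change with PMA was 3.25 ± 0.13 (adjusted p = 3.46e-12), the smallest adjusted p of the named members in this comparison.

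LINC02384 had 90, 72 and 98 counts in control, 39, 41 and 46 with As2S2, and 298, 331 and 314 with PMA. It was lowest with As2S2 and highest with PMA, with no overlap. The log2 fold changes were 2.15 ± 0.13 with PMA (adjusted p = 5.61e-10) and -0.91 ± 0.16 with As2S2 (adjusted p = 0.000265). LINC01160 had 5.01, 5 and 10.6 counts in control, 8.08, 2.01 and 0 with As2S2, and 56.9, 55 and 78.0 with PMA, and rose by 3.44 ± 0.44 with PMA. It passed the floor only through the PMA libraries. Its locus overlaps RAP1A, a small GTPase of integrin activation, and its counts were not whole, so reads of the pair cannot be told apart with certainty: the strand setting of the counting is not given in the sources used here. RAP1A itself went from 137 ± 8.93 to 574 ± 21.7 CPM (SD, n = 3).

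Other members that rose strongly with PMA were LINC00964, by 3.15 ± 0.40, LINC01962, by 3.13 ± 0.35, LINC02805, by 2.86 ± 0.27, LINC01309, by 2.75 ± 0.23, LINC01358, by 2.68 ± 0.41, LINC00520, by 2.68 ± 0.14, LINC02972, by 2.40 ± 0.53, LINC01610, by 2.34 ± 0.40, and LINC02886, by 2.31 ± 0.40. LINC02019 rose by 2.04 ± 0.27 and LINC02356 by 1.83 ± 0.42. LINC01089, known also as LIMT and as a target repressed by epidermal growth factor in breast cells, had 13.97, 11.5 and 18.3 counts in control and 28.6, 33.0 and 29.3 with PMA. It rose by 1.36 ± 0.31, with the PMA libraries above all others. LINC00467 rose by 0.69 ± 0.18. Abundant LINC01088 rose by 0.60 ± 0.08 and LINC02762 by 0.45 ± 0.08. In TPM, however, LINC02762 stood at 37.0 ± 0.291 in control and 33.6 ± 2.15 with PMA (SD, n = 3). The rise of LINC02762 did not pass with library totals alone (0.19, adjusted p = 0.0597). The rises of LINC00938 (0.41 ± 0.11) and LINC00667 (0.33 ± 0.13) did not pass on that scale either, at 0.15 and 0.08, and the call of LINC00667 was also lost without control replicate 1, control replicate 3 or any 1 PMA library.

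The rise of LINC02542 with PMA rested on 1 library. Its counts were 3, 3 and 17 with PMA, overlapping the control counts. The log2 fold change of 1.93 ± 0.79 (adjusted p = 0.0435) was 0.67 without PMA replicate 3, with an adjusted p of 0.541. For LINC02284 the PMA value of 1.81 ± 0.72 became 3.50 without control replicate 3, and its adjusted p was above 0.05 under 8 of the alternative settings, among them the loss of any 1 PMA library, of control replicate 1 or 2, or of As2S2 replicate 1.

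Among the members that fell with PMA, LINC00261 and LINC02693 lost most of their RNA. LINC00261 had 27, 34 and 37 counts in control, 47, 57 and 42 with As2S2, and 2, 1 and 3 with PMA. The PMA libraries were nearly empty and the As2S2 libraries were all above control. The log2 fold change with PMA was -3.68 ± 0.43 (adjusted p = 1.43e-06). The As2S2 value of 0.69 ± 0.25 passed with an adjusted p of 0.0382, but not under 9 of the alternative settings, where adjusted p ranged from 0.0525 to 0.143. Among these were the losses of control replicate 1, control replicate 3, As2S2 replicate 1 and As2S2 replicate 2. LINC02693 had 575, 496 and 569 counts in control, 422, 467 and 417 with As2S2, and 60, 75 and 59 with PMA. It fell by 2.79 ± 0.12 on the log2 scale with PMA (adjusted p = 9.76e-12) and was at -0.20 ± 0.10 with As2S2 (adjusted p = 0.119).

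LINC02806 fell by 2.499 ± 0.69, from 16.2, 15.8 and 3.81 counts in control to 1, 3 and 1 with PMA. LINC02610 fell by 2.08 ± 0.54, a value that was -3.40 without PMA replicate 2, whose 17 counts stood above the 4 and 2 of the other PMA libraries. LINC00680 (-1.34 ± 0.16), LINC01733 (-1.33 ± 0.12), LINC00662 (-1.29 ± 0.11), LINC02207 (-1.27 ± 0.35), LINC02910 (-1.18 ± 0.23), LINC02604 (-1.18 ± 0.22), LINC01806 (-1.16 ± 0.25), LINC01133 (-0.998 ± 0.11) and LINC00665 (-0.96 ± 0.11) fell as well. LINC01733 is an example of a clean separation, with 297, 229 and 304 counts in control, 246, 253 and 254 with As2S2, and 81, 91 and 99 with PMA. Its As2S2 libraries lay within the range of control. LINC00534 had 749, 695 and 906 counts in control and 522, 560 and 530 with PMA. Its fall of 0.25 ± 0.09 did not pass without control replicate 3 or without PMA replicate 3 (adjusted p = 0.132 and 0.133).

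Promoter windows, 250 bases before to 50 bases after an annotated start, were found in RefSeq for 96 of the 156 members (GRCh38.p14), some with several starts. They were searched on both strands for the core site of AP-1, the JUN and FOS dimer whose site is also known as the phorbol ester response element (TGACTCA or TGAGTCA). A window with the site was held by 14 of the 96 members, or 14.6%, and by 6.06% of all 27058 genes in the table. Of the 28 members higher with PMA that had a window, 8 held the site (28.6%), of the 19 lower 0 did, and of the 49 that did not pass 6 did (12.2%). With As2S2 the shares were 5 of 23 that rose (21.7%), 3 of 23 that fell (13.0%) and 6 of 50 that did not pass (12%). The 8 were LINC00973, LINC01002, LINC01358, LINC01943, LINC02284, LINC02384, LINC02542 and LINC02762, of which LINC02284 and LINC02542 had PMA calls that failed without single libraries, as given above, and LINC02762 one that failed with library totals alone. These shares are descriptions, the match of 7 letters is no sign of binding, and the members were not chosen independently of their response. Windows of the 5 members in that group with the largest rise are shown because their rises range from 1.81 to 6.12 on the log2 scale, with the AP-1 letters in capitals.
LINC00973, start at chr3:98966834-98967133, plus strand: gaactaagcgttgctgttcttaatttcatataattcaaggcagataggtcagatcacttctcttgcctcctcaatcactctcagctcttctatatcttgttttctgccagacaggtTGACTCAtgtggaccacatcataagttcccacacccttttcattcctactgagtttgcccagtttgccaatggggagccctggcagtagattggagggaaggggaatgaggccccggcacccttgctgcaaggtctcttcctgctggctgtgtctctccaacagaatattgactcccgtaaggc
LINC00973, start at chr3:98980805-98981104, plus strand: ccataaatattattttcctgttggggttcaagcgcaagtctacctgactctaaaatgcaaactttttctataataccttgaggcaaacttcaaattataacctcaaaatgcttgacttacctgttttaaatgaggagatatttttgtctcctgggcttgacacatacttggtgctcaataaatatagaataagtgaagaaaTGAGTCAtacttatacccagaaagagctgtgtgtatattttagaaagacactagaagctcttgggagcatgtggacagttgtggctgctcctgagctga
LINC01358, chr1:59020226-59020525, plus strand: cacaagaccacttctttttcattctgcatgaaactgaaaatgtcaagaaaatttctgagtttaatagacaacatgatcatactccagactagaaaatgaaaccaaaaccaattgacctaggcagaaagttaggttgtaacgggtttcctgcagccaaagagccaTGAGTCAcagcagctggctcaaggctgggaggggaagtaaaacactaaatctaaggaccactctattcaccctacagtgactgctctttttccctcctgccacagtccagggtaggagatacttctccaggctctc
LINC02384, chr12:68451435-68451734, minus strand: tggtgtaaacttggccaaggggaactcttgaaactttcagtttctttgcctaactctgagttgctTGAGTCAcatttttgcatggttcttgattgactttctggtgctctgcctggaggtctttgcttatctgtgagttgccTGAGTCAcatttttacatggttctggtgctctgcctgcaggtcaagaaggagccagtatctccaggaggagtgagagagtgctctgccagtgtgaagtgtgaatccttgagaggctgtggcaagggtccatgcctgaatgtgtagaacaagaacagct
LINC02542, chr6:81938372-81938671, minus strand: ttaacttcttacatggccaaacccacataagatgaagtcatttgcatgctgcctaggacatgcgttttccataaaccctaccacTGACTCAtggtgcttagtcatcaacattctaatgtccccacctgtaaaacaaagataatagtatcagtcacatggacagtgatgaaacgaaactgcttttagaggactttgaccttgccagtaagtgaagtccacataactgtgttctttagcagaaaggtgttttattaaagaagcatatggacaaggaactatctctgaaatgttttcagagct
LINC02284, chr14:56310739-56311038, plus strand: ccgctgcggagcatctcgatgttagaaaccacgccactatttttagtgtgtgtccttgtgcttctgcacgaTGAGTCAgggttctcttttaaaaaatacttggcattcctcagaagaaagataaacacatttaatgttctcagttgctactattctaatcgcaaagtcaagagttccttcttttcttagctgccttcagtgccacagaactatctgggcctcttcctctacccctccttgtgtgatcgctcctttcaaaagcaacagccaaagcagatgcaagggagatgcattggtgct

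LINC00973 carried the site at 2 of its 4 annotated starts, in both letter forms. LINC02384 carried it at 2 places of 1 window, in the same letter form. The level of JUN, a subunit of AP-1, was 27.1 ± 1.17 CPM in control libraries, 50.1 ± 3.10 with As2S2 and 168 ± 2.81 with PMA (SD, n = 3). LINC00520, LINC00891 and LINC02693 had no entry in the promoter table. With As2S2, 5 of 23 members that rose (21.7%) and 9 of 23 that fell (39.1%) held the metal response element (TGCACNC or TGCGCNC). Of the 50 that did not pass, 12 held it, as did 33.4% of all genes. The antioxidant response element (TGACNNNGC) was held by 5 of the 23 that rose (21.7%) and by 6 of the 23 that fell (26.1%). Among the 50 that did not pass 12 held it too, and among all genes 16.1%. For AGATAA, the motif bound by the factors that govern megakaryocyte and erythroid genes, the shares were 6 of 23 in each direction (26.1%). It was held by 3 of the 50 that did not pass (6.0%) and by 12.5% of all genes. The other motifs searched were the cAMP response element (TGACGTCA), with 4 members (4.17%) and 2.24% of all genes, an EGR site (GCGTGGGCG), with 1 member (1.04%) and 0.965%, and an ETS site (CCGGAAGT), with 6 members (6.25%) and 4.93%. No motif searched contains another, though matches of different motifs can share bases in a window. The median share of G and C bases was 54.4% in member windows and 58.7% in all windows. Its part in the shares of members beside all genes was not tested.

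Set directly against each other, As2S2 and PMA libraries differed in 83 members, 38 higher with As2S2 and 45 higher with PMA, which is 53.2% of members beside 61.4% of all genes (24.4% beside 30.9% higher with As2S2, and 28.8% beside 30.6% lower). With library totals alone the numbers were 48 and 39, so that 55.2% rather than 45.8% of the called members were higher with As2S2. For all genes the share was 62.9% rather than 50.2%. Libraries did not overlap for 91 members, where 67.2% of all genes did not. LINC02005 was higher with As2S2 by 4.51 ± 0.69, with a ratio of summed counts of 28.7 and a 95% counting interval of 9.50 to 142. The fitted value was 7.86 without PMA replicate 1, which held all 3 of the PMA counts. LINC00261 was higher with As2S2 by 4.37 ± 0.40 (adjusted p = 1.11e-07), LINC02806 by 3.66 ± 0.61, LINC01132 by 3.56 ± 0.43, LINC02693 by 2.59 ± 0.12 and LINC01694 by 1.84 ± 0.25. Lower with As2S2 were LINC00973 (-5.56 ± 0.29), LINC01160 (-4.35 ± 0.50), LINC02984 (-4.19 ± 0.36), LINC02384 (-3.06 ± 0.14), LINC02232 (-2.14 ± 0.25), LINC02019 (-2.04 ± 0.27) and LINC01356 (-2.02 ± 0.20).

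The comparisons with control share their 3 control libraries, so the values of the members are given side by side without a test of their likeness. Past the threshold in both, 18 members were higher in both treated groups (11.5%, beside 10.4% of all genes). For 5 of them the direct comparison put As2S2 above PMA (LINC00520, LINC01610, LINC02154, LINC02284 and LINC02542), for 6 below it (LINC00891, LINC00964, LINC01309, LINC01358, LINC01962 and LINC02805), and for 7 the direct difference did not pass. The As2S2 calls of LINC01309, LINC01358, LINC01962 and LINC02805 against control were each lost without some single library, control replicate 1 or 3 among them. LINC00520 was higher with As2S2 than with PMA by 0.49 ± 0.11 (adjusted p = 0.00146) and LINC01610 by 1.31 ± 0.28. The difference of LINC02154, 0.54 ± 0.21, was 0.34 without As2S2 replicate 1 and then did not pass, nor without PMA replicate 2 or 3. That of LINC02542, 1.51 ± 0.55, did not pass without As2S2 replicate 1 or 2 or without PMA replicate 1 or 2, and was 2.77 without PMA replicate 3. LINC00891 was lower with As2S2 than with PMA by a log2 difference of -1.28 ± 0.11 and LINC00964 by one of -1.10 ± 0.32. LINC02972 was among the 7, with an As2S2 minus PMA difference of -0.47 ± 0.43 (SE), which leaves a difference in either direction possible.

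In both treated groups 8 members (5.13%, beside 10.1% of all genes) were lower than control: LINC00534, LINC00662, LINC00665, LINC00886, LINC01133, LINC02207, LINC02573 and LINC02610. The As2S2 call of LINC02207 was lost without control replicate 3, As2S2 replicate 2 or As2S2 replicate 3, and the PMA call of LINC00886 without control replicate 1. LINC00662 was higher with As2S2 than with PMA by 0.64 ± 0.11 and LINC01133 by 0.36 ± 0.11, a call lost without PMA replicate 3 (adjusted p = 0.0533), whereas LINC00534 was lower with As2S2, at -0.32 ± 0.09, a call lost with library totals alone (-0.15, adjusted p = 0.196). The call of LINC00886 with As2S2 (-0.95 ± 0.34, adjusted p = 0.0385) did not pass under 12 of the alternative settings, among them the loss of any 1 library other than As2S2 replicate 3.

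Opposite directions against control were found for 11 members (7.05%, beside 7.31% of all genes). Each of them also differed in the direct test, which is no separate evidence, as the direct difference adds the opposite effects. Higher with As2S2 and lower with PMA were LINC00261, LINC01132, LINC02806 and LINC02910. The As2S2 call of LINC02910 was lost without control replicate 1 or As2S2 replicate 3. That of LINC02806, 1.16 ± 0.43, was 0.72 without control replicate 3 and was lost without any 1 control or As2S2 library other than control replicate 2. LINC01132 had 12, 6 and 13 counts in control, 44, 42 and 49 with As2S2, and 3, 1 and 6 with PMA. Its As2S2 libraries were above all others, and it passed the floor only through them, while 1 PMA library reached the lowest control count. The log2 fold changes were 2.24 ± 0.35 with As2S2 (adjusted p = 0.000114) and -1.32 ± 0.52 with PMA (adjusted p = 0.038), and the PMA call did not pass under 5 of the alternative settings, among them the losses of control replicate 1 or 3 and of PMA replicate 1 or 2. Lower with As2S2 and higher with PMA were LINC00863, LINC00938, LINC01088, LINC01356, LINC02232, LINC02384 and LINC02984. The As2S2 call of LINC00938 was lost without control replicate 3 or As2S2 replicate 2. The PMA calls of LINC00938 and LINC02232 were lost with library totals alone, that of LINC02232 at 0.49 (adjusted p = 0.0532). LINC01356 had 78.8, 92.2 and 67.2 counts in control, 28.4, 44 and 38.1 with As2S2, and 132, 135 and 134 with PMA, 3 levels with no overlap.

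Other members passed in 1 direction with 1 agent. LINC01357 had 103, 127 and 150 counts in control, 51.6, 52 and 54.0 with As2S2, and 103, 130 and 149 with PMA. It was lower in As2S2 libraries than in all others, and the control and PMA libraries covered the same range. LINC01003 had 43, 41 and 57 counts in control, 13, 17 and 16 with As2S2, and 37, 39 and 54 with PMA, the same arrangement. LINC00680 had 184, 148 and 150 counts in control, 161, 163 and 175 with As2S2, and 40, 61 and 55 with PMA, where the PMA libraries alone stood apart. No call was made in any of the 3 comparisons for 47 members (30.1%, beside 21.0% of all genes). Among them LINC00839, with 658, 598 and 632 counts in control, 559, 627 and 617 with As2S2 and 438, 528 and 527 with PMA, was measured closely, at 0.06 ± 0.09 with As2S2 and -0.06 ± 0.09 with PMA. LINC01128 was at 0.04 ± 0.11 and 0.15 ± 0.11.

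**Figure D3:**
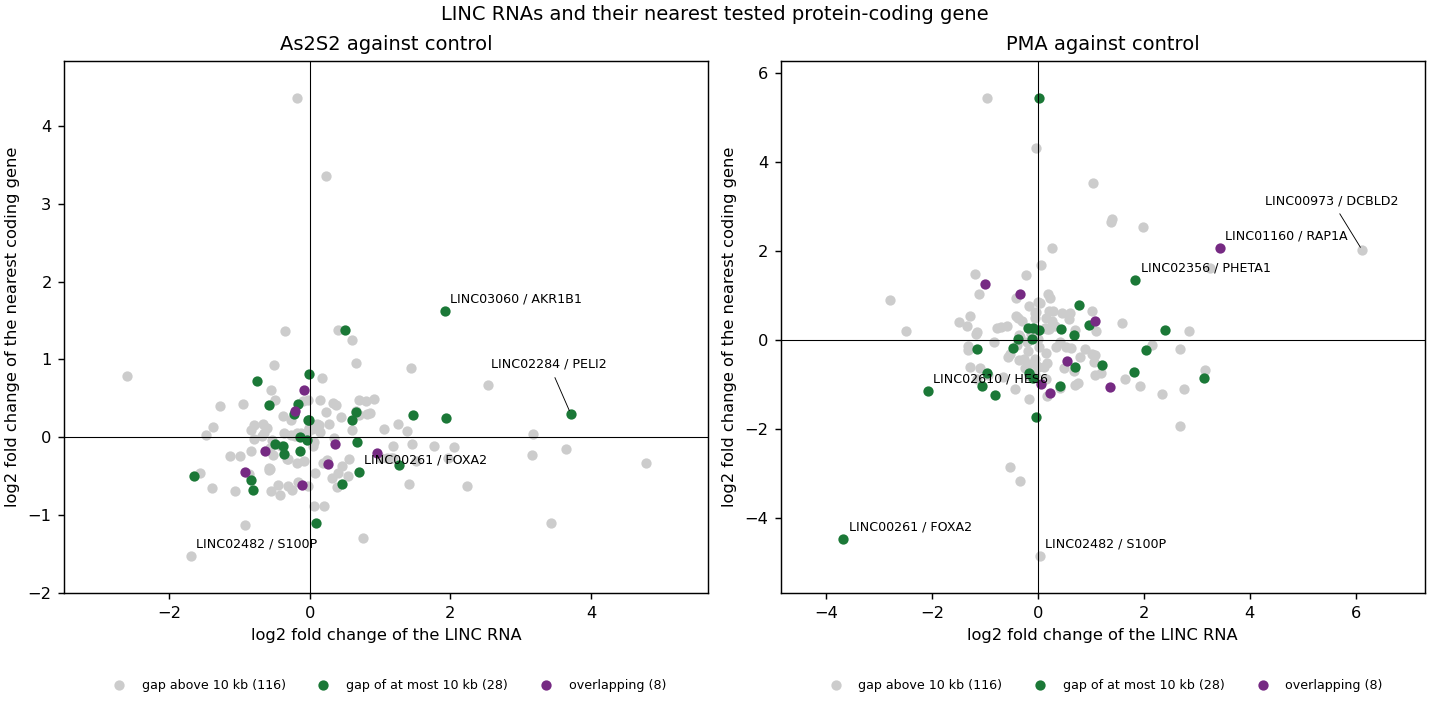
Log2 fold change of the nearest tested protein-coding gene (vertical axis) against that of the LINC RNA (horizontal axis) for 152 members, with As2S2 against control on the left and PMA against control on the right. Green pairs lie at most 10 kb apart (28), purple pairs overlap (8) and grey pairs are farther apart (116); LINC00261 and FOXA2 are both far below 0 with PMA, while LINC02482 and S100P are both low with As2S2 and part with PMA.

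The nearest tested protein-coding gene was taken for the 152 members that could be placed by the gene order of RefSeq (GRCh38.p14). Over all pairs Pearson's r between the log2 fold change of the LINC RNA and of its neighbour was 0.03 with As2S2 and 0.13 with PMA. Over the 28 pairs at most 10 kb apart it was 0.32 and 0.38, and over the 116 pairs farther apart -0.02 and 0.03. With PMA the close pairs include LINC00261 and FOXA2, at -3.68 and -4.49, the lowest LINC and neighbour values among these pairs. How far r over the close pairs rests on single pairs was not tested. Pairs share libraries and are not independent, and the values are descriptions. With PMA both genes of a pair passed in 11 of the 28 close pairs, 6 in the same direction and 5 in opposite directions. With As2S2 both passed in 7, of which 6 went the same way. Among the pairs farther apart both passed in 31 with PMA, 13 in the same direction and 18 in opposite directions. With As2S2 both passed in 21 of these, 12 in the same direction and 9 in opposite directions.

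LINC00261 and FOXA2 were the clearest pair. FOXA2, which opens chromatin for later factors, was at 8.76 ± 0.84 CPM in control libraries, 6.43 ± 1.28 with As2S2 and 0.377 ± 0.148 with PMA (SD, n = 3). Its log2 fold change was -4.49 ± 0.26 with PMA (adjusted p = 3.91e-10), beside -3.68 for LINC00261. With As2S2 the pair parted, FOXA2 at -0.44 ± 0.17 and LINC00261 at 0.69.

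LINC03060 and AKR1B1, the aldose reductase gene, rose together with As2S2. LINC03060 had 6, 11 and 17 counts in control, 36, 55 and 28 with As2S2, and 14, 15 and 16 with PMA. AKR1B1 went from 14.4 ± 2.0 to 44.3 ± 3.35 CPM with As2S2 and stood at 15.4 ± 1.82 CPM with PMA (SD, n = 3). For both genes the As2S2 libraries were the high ones, and LINC03060 passed the count floor only through them. LINC02610 and HES6, a member of the HES family of transcription factors, fell together: HES6 was at -0.49 ± 0.14 with As2S2 and -1.16 ± 0.15 with PMA.

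LINC00973 and DCBLD2, a membrane receptor-like gene more than 10 kb away, both rose with PMA, DCBLD2 by 2.003 ± 0.13 (adjusted p = 1.12e-09). LINC02356 and PHETA1 start close to each other in opposite directions and rose by 1.83 and 1.34 with PMA. With As2S2 PHETA1 rose by 0.81 ± 0.13 while LINC02356 was at -0.02 ± 0.50. LINC02482 fell with As2S2 beside S100P, a calcium-binding protein gene, which was at -1.53 ± 0.17. With PMA S100P was at -4.87 ± 0.26 and LINC02482 at 0.04 ± 0.34. LINC02777 and JUN, 98.8 kb apart, both rose. With As2S2 and PMA, LINC02777 rose by 1.45 ± 0.47 and 1.39 ± 0.48, from 6, 4 and 7 counts in control. JUN rose by 0.89 ± 0.08 and 2.64 ± 0.08. The LINC02777 call with As2S2 was lost without control replicate 1 or 2 or As2S2 replicate 2 or 3, and that with PMA without control replicate 2 or PMA replicate 2.

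In other pairs the LINC RNA moved apart from its neighbour. KTN1, the nearest coding gene to LINC00520, was at -0.23 ± 0.15 with As2S2 and -1.93 ± 0.16 with PMA, where LINC00520 was 3.17 and 2.68. TRIM7, beside LINC01962, was at -0.87 ± 0.18 with PMA, where LINC01962 rose by 3.13. LINC00339 fell with As2S2 while CDC42 was at 0.09 ± 0.06, and CDC42 rose by 0.62 ± 0.06 with PMA while LINC00339 was at -0.04 ± 0.14. SLAMF9, which overlaps LINC01133, rose by 1.25 ± 0.14 with PMA while LINC01133 fell by 0.998. In all, 15 of the placed members overlap a coding gene, tested or not, among them LINC01088 with NAA11, LINC01089 with SETD1B and LINC00847 with ZFP62. The values of these 15 share the limit on strand given for LINC01160. Only 8 of them overlap a tested gene. The others, such as LINC01088, were paired with a tested gene farther away and stand among the pairs more than 10 kb apart.

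**Figure D4:**
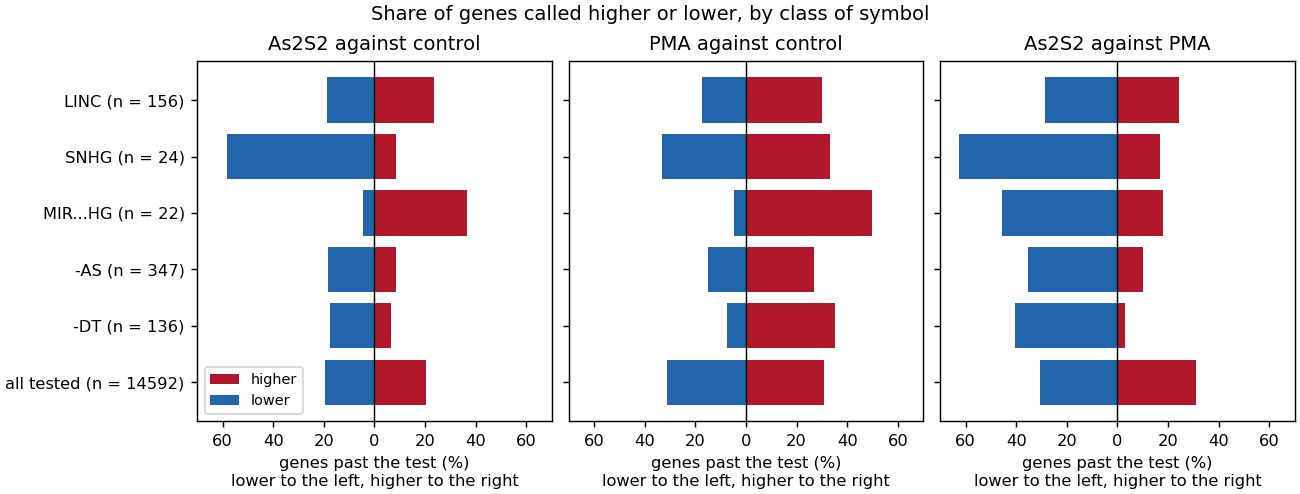
Share of genes in percent (horizontal axis) that were lower (blue, to the left) or higher (red, to the right) at an adjusted p under 0.05, for LINC RNAs, other classes of noncoding gene symbols and all tested genes, in the 3 comparisons. Antisense (-AS) and divergent (-DT) genes have longer blue than red bars for As2S2 against control and longer red than blue bars for PMA against control.

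Other noncoding classes, taken by their symbols, differed in their counts of calls. Of 24 host genes of small nucleolar RNAs (SNHG), 2 were higher and 14 lower with As2S2 (8.33% and 58.3%). With PMA the numbers were 8 and 8 (33.3% each). Of 22 microRNA host genes 8 were higher and 1 lower with As2S2, and 11 and 1 with PMA. Of 347 antisense genes 29 were higher and 63 lower with As2S2 (8.36% and 18.2%), and 93 and 52 with PMA (26.8% and 15.0%). Of 136 divergent transcripts 9 were higher and 24 lower with As2S2 (6.62% and 17.6%), and 48 and 10 with PMA (35.3% and 7.35%). The LINC members had 37 higher and 29 lower (23.7% and 18.6%), and 47 and 27 (30.1% and 17.3%). For all tested genes the shares were 20.3% and 19.6% with As2S2, and 30.8% and 31.1% with PMA. In a list of 22 noncoding RNAs with functional names, 7 were higher and 4 lower with As2S2 (31.8% and 18.2%). With PMA the list had 10 and 3 (45.5% and 13.6%). Among these NEAT1, the scaffold of paraspeckles, went from 31.5 ± 3.95 CPM in control to 94.3 ± 6.26 with As2S2 and 148 ± 12.2 with PMA (SD, n = 3), and LINC-PINT, a p53-induced RNA that lacks a serial number, was at 0.59 ± 0.17 with As2S2 and 2.02 ± 0.16 with PMA on the log2 scale. The difference between classes was not tested. Depth, which limits what can pass, also differed between them. Median summed counts were 3152 for SNHG, 221 for microRNA hosts, 209 for antisense and divergent genes and 7492 for the named list. They were 311 for LINC members and 2288.5 for all tested genes.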

How the data were processed

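The deposited tables, one for each treatment against control, hold per gene what the authors computed from the reads: an estimated count and a TPM for each library, and DESeq2 log2 fold changes and p-values. Per the submitters' processing notes, fastp 0.22.0 was used; the notes also name the zebrafish builds GRCz11 and danRer11, while the deposited gene IDs are human Ensembl IDs, and 1 control library has an organism label other than human. Which aligner, counter, strand setting and annotation were used is not given in the sources used here. Per the labels' protocols, libraries were made from poly(A) RNA with the NEBNext Ultra II kit. Member counts were whole in all 9 libraries for 67 members and in none for 30, so reads may be shared with other genes.

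Counts were rounded and fitted with edgeR 4.0.16 (R 4.3.3): filterByExpr, TMM factors, one design over all 3 groups and quasi-likelihood tests with Benjamini-Hochberg adjustment over 14592 genes; an adjusted p under 0.05 was the threshold. The common biological coefficient of variation was 0.0909. CPM are TMM scaled. The fit was tested on simulated data. DESeq2 1.42.0 and limma-voom 3.58.1, scalings, filters, thresholds, a replicate block and the loss of each library were alternatives. Intervals cover counting error only.

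The members and gene lists were chosen with earlier results of these data known. Members named are the 12 highest and the 12 lowest fold changes per comparison among called members without overlap, the 10 highest TPM, the 5 on each side of the count floor, and 35 often studied LINC genes, of which 19 are members; in all 70 members. LINC01002 and LINC01943, the 11 members with opposite directions, the 26 called in the same direction by both agents and neighbours of named members were named after their values were seen where outside that rule. Replicate numbers were not treated as pairs.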

Additional observations from a re-analysis of the deposited data

How the results depend on the processing

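No named member result changed direction, and 111 of 149 stayed on the same side of the threshold under every alternative run. Over these results 2632 alternative values kept their side and 153 lost it. At an adjusted p under 0.01, 24 members were higher and 18 lower with As2S2. The count over all genes at that threshold is not given here. With a log2 fold change of at least 1 required, 26 were higher and 10 lower with As2S2, and 33 and 17 with PMA. For As2S2 against PMA 25 were higher and 31 lower. In that order all genes numbered 618 and 509, 1721 and 1339, and 1392 and 1624, of 14592. Total-count scaling, chosen after seeing the data, gave 30 higher and 40 lower with PMA, beside 2955 and 6476 of all genes.

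Leaving out 1 library at a time gave 27 to 35 members higher and 20 to 27 lower with As2S2, 38 to 46 higher and 21 to 28 lower with PMA, and 31 to 39 higher and 40 to 46 lower for As2S2 against PMA. Over all genes the ranges were 2416 to 3302 higher and 2217 to 3018 lower with As2S2. With PMA they were 4129 to 4759 and 4138 to 4759, and for As2S2 against PMA 4123 to 4846 and 4030 to 4722. Groups then left with fewer libraries were assumed to vary like the others. Replicate numbers did not pair the libraries: deviations of same-numbered libraries correlated at -0.073 to 0.149, and 4 of 9 correlated best with their own number. With the number as a replicate block, 34 and 27 members were higher and lower with As2S2, 46 and 27 with PMA, and 37 and 45 for As2S2 against PMA. All genes then numbered 3005 and 2967, 4569 and 4611, and 4543 and 4501. The cause of these changes was not tested.

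Depth limits the scarce members: below 300 counts the smallest change that passed was 0.66 with As2S2 and 0.78 with PMA on the log2 scale, against 0.31 and 0.25 at 1000 counts or more.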
